A study of Homo sapiens with 9 samples.

Results

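This comparison set glioblastoma cells from devices treated with MK801 against the core cells of control devices. Its members are 6 of the 9 libraries of the study, the 3 MK801 libraries and the 3 control core libraries, chosen by their labels alone. All 6 held RNA of GBM43, a human glioblastoma cell line, grown in DMEM with fetal bovine serum and placed in hyaluronic acid gel devices that allow cells to invade the gel. MK801 devices received 50 µM of the drug. Control devices received vehicle, which the labels give as DMSO in one place and as culture medium in another. The control gels were cut with a scalpel, so that the core libraries hold cells that had not invaded. In the MK801 devices too few cells had invaded to be taken apart, so invaded and core cells were pooled. Drug treatment and the presence of invaded cells therefore cannot be told apart in these 6 libraries. Gels were digested with hyaluronidase in both groups, which matters for the hyaluronan genes below. The labels do not say that the replicates were separate cultures, so a p-value here weighs only library-to-library variation, part of which can be technical. In such bulk libraries fewer cells of a type and less RNA per cell cannot be told apart.

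MK801 (dizocilpine) is an open-channel blocker of the NMDA receptor, a glutamate-gated channel that lets calcium into the cell and needs the subunit encoded by GRIN1. In neurons this calcium switches on immediate-early genes, and glioblastoma cells are known to release glutamate and, in some models, to depend on glutamate receptors for invasion. Invasion through hyaluronan-rich gel draws on hyaluronan synthesis, on matrix crosslinking enzymes such as lysyl oxidase, and on the proteases that cut matrix.

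Transcripts of the drug target were scarce. GRIN1 had 0 fragments in all 6 libraries, which allows at most 0.0315 FPKM (fragments scaled to gene length and library depth) in any of them, a limit (3 fragments) that covers counting error only. GRIN2D, a regulatory subunit, was at 0.261, 0.332 and 0.227 FPKM in core libraries 1, 2 and 3 and at 1.17, 1.12 and 0.341 FPKM in MK801 libraries 1, 2 and 3. Its groups did not overlap, but MK801 library 3 lay close to the core. GRIN2C was at 0.130 to 0.190 FPKM in core and 0.181 to 0.271 FPKM in MK801 libraries, and GRIN3B was at 0 in MK801 library 1. None of the 7 subunit genes and none of 19 other glutamate receptor genes reached the level needed for testing, which was 1 FPKM in at least 3 of the 6 libraries.

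The cells carried part of the glioblastoma marker set. VIM, the mesenchymal intermediate filament, was at 897 to 1816 FPKM, CD44, the hyaluronan receptor, at 49.2 to 78.5 FPKM, EGFR at 3.19 to 6.43 FPKM, SOX9 at 3.93 to 15.8 FPKM and SOX2 at 2.15 to 3.26 FPKM over the 6 libraries. The glial filament GFAP was at most 0.0588 FPKM and the progenitor filament NES at most 0.0803 FPKM, while OLIG2 and S100B had 0 in all 6. Of the other cell types, all 3 T cell markers were at 0, and the summed level of 4 oligodendrocyte markers was at most 0.139 FPKM. The 7 fibroblast and pericyte markers summed to 70.2 to 144 FPKM in core and 82.7 to 197 FPKM in MK801 libraries, with 3 of 7 above the test level: COL1A1, COL1A2 and PDGFRB. DCN and LUM, more restricted fibroblast genes, stayed under 1 FPKM in each library.

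Depth and base composition set the MK801 libraries apart from each other before any gene was considered. The core libraries held 15.6 to 23.7 M fragments, and MK801 libraries 1, 2 and 3 held 18.4, 16.5 and 54.4 M. Thinned to 15.6 M fragments, the core libraries detected 20322 to 21414 genes, against 15161, 19031 and 21517 in MK801 libraries 1, 2 and 3. The mean GC content of the sequenced genes was 49.0% to 50.3% in core and 53.6%, 52.4% and 49.7% in the MK801 libraries. On both measures MK801 library 1 lay farthest from the core and library 3 lay closest to or within its range. The part of base composition and depth in the gene results was not tested. Values after GC adjustment are given for each gene list and for some of the named genes. Genes shown without such a value can move as well. Examples are the log2 differences of IER3 (1.25 before and 0.72 after), BAK1 (1.32 and 0.78) and TRIB3 (1.11 and 0.51).

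Of 58735 genes, 11358 were tested, on the scale log2(FPKM + 1). With limma and Benjamini-Hochberg adjustment, 0 genes (0%) passed an adjusted p of 0.05, and the smallest adjusted p was 0.0731. At an unadjusted p under 0.05 there were 771 genes higher (6.79%) and 701 lower (6.17%) in MK801 than in core. A second count needs no test: in 1135 genes (9.99%) all 3 MK801 libraries lay above all 3 core libraries, and in 1008 genes (8.87%) all 3 lay below. In what follows, "separated" means such a gene, whose groups do not overlap. With 3 libraries against 3, an exact permutation test cannot give a p below 0.1, so separation is a description.

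The 3 MK801 libraries were not alike. The SD over genes of the log2 difference from the core mean was 1.10 in library 1, 0.66 in library 2 and 0.28 in library 3, while a core library compared with the other 2 gave 0.31 to 0.35. By this measure library 3 spread no more than a core library did. The measures are not fully alike, since library 3 was compared with 3 libraries rather than 2 and was sequenced deeper. In library 1, 2320 genes (20.4%) lay above and 2617 (23%) below the core range by at least 1 log2 unit from the core mean. In library 2 these were 596 (5.25%) and 586 (5.16%), and in library 3 they were 47 (0.414%) and 29 (0.255%). Among the 2143 separated genes, library 3 was the MK801 library nearest the core in 1818 (84.8%), and the median absolute difference was 0.92, 0.71 and 0.26 in libraries 1, 2 and 3.

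**Figure D1:**
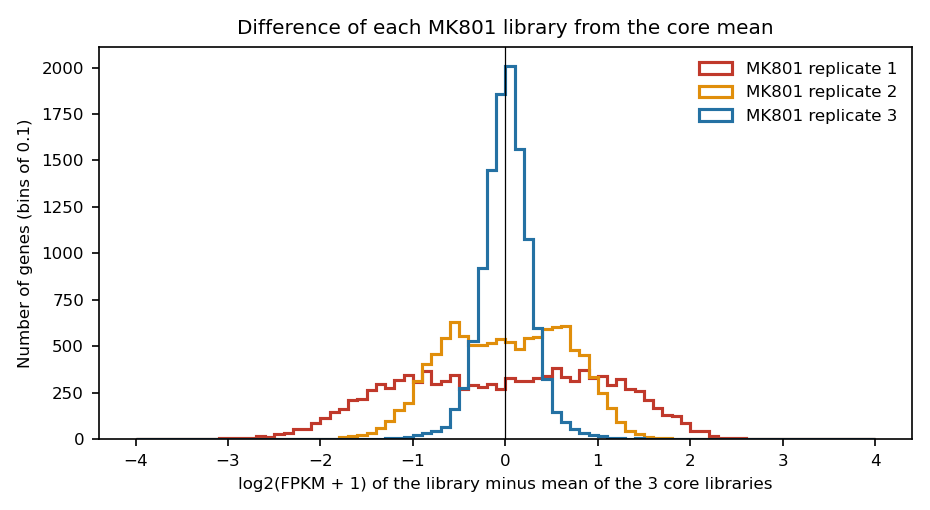
Histogram of genes (y axis, number per bin) by the difference of each MK801 library from the mean of the 3 core libraries on the log2(FPKM + 1) scale (x axis), 1 line per library. The SD is 1.10 in replicate 1, 0.66 in replicate 2 and 0.28 in replicate 3, whose genes cluster around 0.

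The size of the difference followed the GC content of the gene in libraries 1 and 2. Across genes, which are not independent and share each library's depth and composition, Spearman's rho between GC content and the difference from core was 0.75 in library 1, 0.78 in library 2 and -0.02 in library 3. Of 10 bins of genes by GC content, the lowest (median 36.8%) had a median difference of -1.32 in library 1 and -0.75 in library 2. In the highest (63.9%) it was 1.18 and 0.77. In library 3 the medians of these 2 bins were 0.04 and 0.02. Core libraries also varied along this axis, with rho between each core library's difference from the other 2 and GC content of 0.51, 0.27 and -0.63. When a smooth trend on GC content was removed from every library, 896 genes were separated upwards and 1014 downwards.

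**Figure D2:**
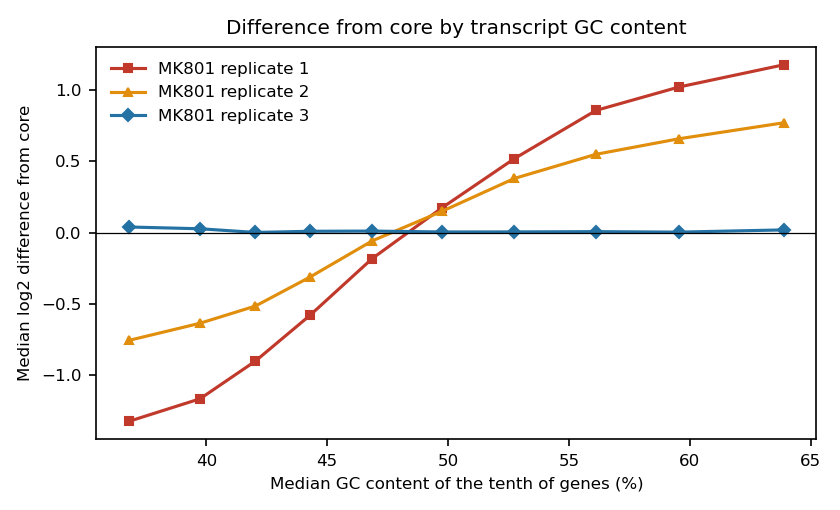
Median log2(FPKM + 1) difference from the core mean (y axis) in 10 bins of genes ordered by GC content of the transcript (x axis, %), 1 line per MK801 library. Replicates 1 and 2 run from -1.32 and -0.75 to 1.18 and 0.77, and replicate 3 stays near 0.

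Only 18 genes lay beyond the core range by at least 1 log2 unit in all 3 MK801 libraries, 11 higher (0.0968%) and 7 lower (0.0616%). Of these, 5 were protein coding, and all 5 were higher: SLC12A8, FAM19A3, CPNE7, CSF2 and G0S2. FAM19A3, which encodes a small secreted chemokine-like protein (chr1:112720419-112727235, GRCh38), was at 1.21, 1.41 and 1.97 FPKM in core and at 5.13, 5.81 and 4.82 FPKM in MK801 libraries 1, 2 and 3. SLC12A8, a solute carrier of the cation-chloride cotransporter family (chr3:125082636-125212864), was at 3.14, 3.28 and 4.14 FPKM in core and at 8.73, 10.9 and 8.02 FPKM in MK801 libraries. In both genes, as deposited, the 3 MK801 libraries lay close together and far above the core, which was rare among the genes tested. Both stayed separated after GC adjustment, but the libraries lay less close together. The log2 differences in libraries 1, 2 and 3 were then 0.59, 1.04 and 1.21 for FAM19A3 and 0.76, 1.19 and 1.00 for SLC12A8.

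G0S2, an inhibitor of the triglyceride lipase ATGL (chr1:209675420-209676388), was at 7.10, 4.57 and 9.22 FPKM in core and at 31.9, 18.8 and 16.7 FPKM in MK801 libraries. CPNE7, a calcium-dependent phospholipid-binding protein, was at 0.660, 0.879 and 0.888 FPKM in core and 4.03, 4.42 and 2.93 FPKM in MK801 libraries. CSF2, which encodes the cytokine GM-CSF, rested on few fragments: 28, 1 and 34 in core and 77, 39 and 191 in MK801 libraries. Its levels were 1.28, 0.074 and 1.92 FPKM in core and 6.91, 3.21 and 3.73 FPKM in MK801 libraries. The log2 differences of the 5 genes were 1.17 (SE 0.24) for SLC12A8, 1.32 (SE 0.24) for FAM19A3, 1.40 (SE 0.24) for CPNE7, 1.49 (SE 0.41) for CSF2 and 1.55 (SE 0.34) for G0S2, each with a limma adjusted p of 0.333. After GC adjustment G0S2 was at 1.07 and CSF2 at 1.35, both still separated.

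A wider set of 20 protein-coding genes was named by rule: separated, at least 5 FPKM in the higher group, and of smallest p, 10 in each direction. The adjusted p was 0.333 for all 20. PER1, a repressor of the circadian clock that is also an immediate-early and glucocorticoid-responsive gene (chr17:8140472-8156506), was at 5.69, 7.71 and 5.95 FPKM in core and 20.3, 21.9 and 13.0 FPKM in MK801 libraries. TIMP3, a matrix-bound inhibitor of metalloproteinases (chr22:32801701-32863043), was at 20.3, 8.77 and 14.5 FPKM in core and 40.6, 41.0 and 27.3 FPKM in MK801 libraries. The other higher genes were ZC3H12A, RBM38, BBC3, RELB and MAFK. GC adjustment lowered most differences: PER1 went from 1.36 to 0.73, RELB from 1.37 to 0.69, RBM38 from 1.14 to 0.50 and BBC3 from 1.11 to 0.40, while TIMP3 was at 1.31 and 1.26. Of the 20 genes, 17 stayed separated after the GC trend was removed, and the exceptions were ZC3H12A, MAFK and TMEM200A.

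On the lower side, HAS2, the main hyaluronan synthase of mesenchymal cells, was at 14.3, 17.2 and 13.0 FPKM in core and 2.85, 4.13 and 7.12 FPKM in MK801 libraries. Its mean was 14.8 ± 2.16 FPKM in core and 4.70 ± 2.19 FPKM in MK801 (SD, n = 3 each), a log2 difference of -1.53 (SE 0.32). All 3 MK801 libraries lay below the lowest core library, and the difference was -0.86 after GC adjustment. NDUFB3 (chr2:201071433-201085750) and NDUFS4 (chr5:53560633-53683340), subunits of respiratory complex I, were at 9.77 to 14.4 and 24.5 to 28.0 FPKM in core and at 2.50, 3.17 and 6.09 and 7.99, 11.0 and 16.1 FPKM in MK801 libraries 1, 2 and 3. The remaining lower genes were CRYZ, TMEM200A, LOX, HSPA1A, PPIL3, NEK2 and C17orf58. After GC adjustment NDUFB3 was at -1.12 (-1.41 before) and NDUFS4 at -0.76.

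**Figure D3:**
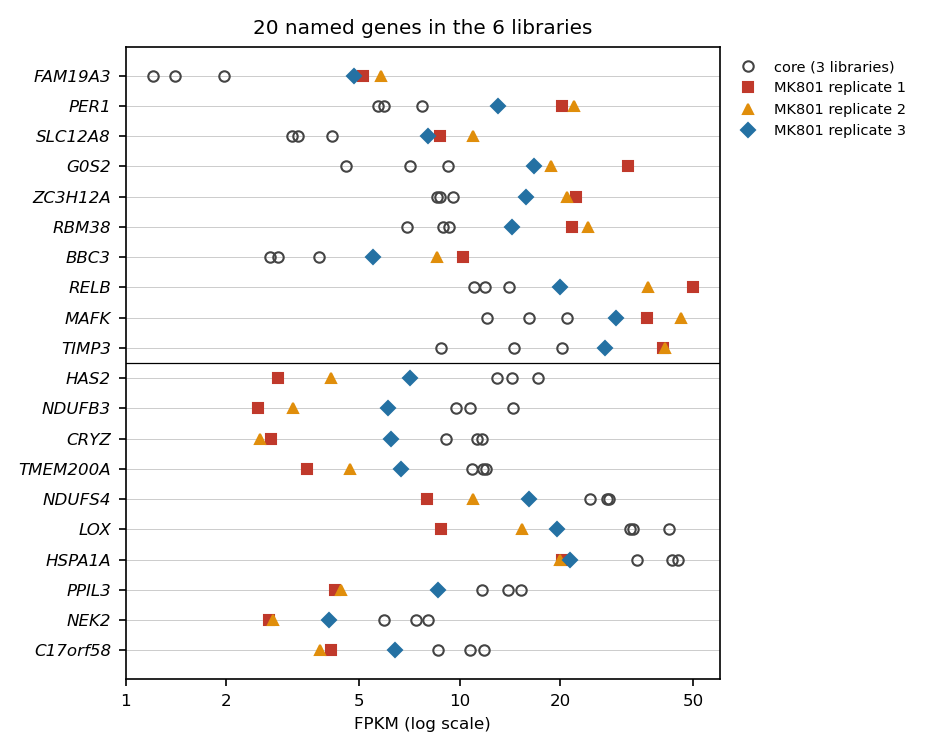
FPKM (x axis, log scale) of the 20 genes named by rule (y axis, 10 higher above the line and 10 lower below it), with open circles for the 3 core libraries and filled symbols for MK801 replicates 1, 2 and 3. The groups do not overlap in any of the 20 because the rule asked for it, and replicate 3 lies nearest the core in most genes, as in HAS2 (7.12 FPKM against at least 13.0 in core).

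Gene lists were read by their counts and medians, beside the background of 9.99% separated upwards and 8.87% downwards and a median of 0.00 over all genes tested. List counts with a library left out have another background. Without MK801 library 3, 4153 of all 11358 genes were separated upwards and 4118 downwards. Without MK801 library 1 these were 1483 and 1256. A rise of a list count in these settings is therefore not particular to the list. Under limma-voom, which scales by the recovered gene total, the median over all genes was -0.26. The medians of the immediate-early, p53, replication, collagen, ER chaperone, glutamate, calcium, protease and YAP lists, between 0.01 and 0.18 here, were below 0 there. Among these lists only p53, at -0.37, lay below the all-gene median of limma-voom.

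Of the NF-kB list, which covers the signalling arm that drives cytokine genes and its feedback brakes, 30 of 37 genes were tested and 21 had a higher mean, against 50.2% of all genes tested. Of the 30, 13 were separated upwards and 1 downwards, and the median log2 difference was 0.47. The median was 0.53, 0.62 and 0.34 in MK801 libraries 1, 2 and 3. In library 3, 28 of 30 genes were above the core mean, against 5972 of all 11358 genes tested. RELB, a subunit of the non-canonical NF-kB dimer (chr19:45001430-45038198), was at 11.1, 14 and 11.9 FPKM in core and 49.9, 36.5 and 19.96 FPKM in MK801 libraries. IER3, an early-response survival gene, was at 236, 237 and 190 FPKM in core and 773, 564 and 331 FPKM in MK801 libraries.

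ZC3H12A, the ribonuclease that degrades cytokine mRNAs (chr1:37474552-37484379), was at 8.54, 9.52 and 8.71 FPKM in core and 22.3, 20.9 and 15.8 FPKM in MK801 libraries. NFKB2, the partner of RELB, named after its values were seen, was at 21.7, 26.2 and 22.2 FPKM in core and 68.5, 58.2 and 29.6 FPKM in MK801 libraries. In these 3 genes and in IER3 the groups were separated, and library 3 was the nearest to core. The gene that was separated downwards was PTGS2, which encodes cyclooxygenase 2, at 38.1, 38.5 and 46.9 FPKM in core and 6.38, 16.5 and 35.8 FPKM in MK801 libraries. After the GC trend was removed 7 members were separated upwards, 6 of them among the 13, and the median was 0.18. ZC3H12A was not among the 6. The count was 14 without MK801 library 1 and 18 without library 3.

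Immediate-early genes, the first transcripts induced by calcium and growth factor signals, were split between directions. Of 38 genes 33 were tested, 9 were separated upwards and 1 downwards, and the median was 0.14. After the GC trend was removed the median was -0.08, with 4 separated upwards and 5 downwards. NR4A1, an orphan nuclear receptor, was at 1.60, 1.21 and 1.47 FPKM in core and 2.68, 3.76 and 2.44 FPKM in MK801 libraries. EGR2, a zinc finger factor, was at 5.36, 3.71 and 3.64 FPKM in core and 1.07, 2.41 and 2.86 FPKM in MK801 libraries, separated in the opposite direction. After GC adjustment NR4A1 was no longer separated, with a log2 difference of 0.13 (0.70 before), while EGR2 was, at -0.95 (-0.78 before).

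CYR61, a secreted matrix protein and YAP target, was at 41.6, 38.8 and 46.5 FPKM in core and 75.1, 82.1 and 89.3 FPKM in MK801 libraries. Here the groups were separated and MK801 library 3 was the highest of all. Of the YAP and TEAD target list 20 of 22 genes were tested, 4 were separated upwards and 2 downwards, and the median was 0.01. Within it the RhoA activator ARHGEF17 was higher, by 0.76 (SE 0.27), and the membrane repair protein MYOF lower, by a log2 difference of -0.76 (SE 0.27), both separated. The list median was -0.12 after GC adjustment, with 3 separated upwards and 5 downwards. ARHGEF17, at 0.13, was then no longer separated, while MYOF (-0.66) and CYR61 (0.81) were.

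Regulators of apoptosis had a higher median in MK801, with no gene past the adjusted threshold. Of the BCL2 family list, which also holds the PIM survival kinases, 15 of 19 genes were tested, 5 were separated upwards and 0 downwards, and the median was 0.72 (0.24 after GC adjustment). The 5 were BBC3, PIM2, BAK1, PIM3 and PIM1. After GC adjustment BBC3, BAK1 and PIM3 were still separated and PIM2 and PIM1 were not, while 1 other member was added, for 4 in all. BBC3, which encodes the p53-induced killer PUMA (chr19:47220822-47232766), was at 2.71, 3.79 and 2.86 FPKM in core and 10.2, 8.55 and 5.50 FPKM in MK801 libraries. BAK1, a pore-forming effector of apoptosis, was at 9.47, 11.9 and 8.79 FPKM in core and 50.8, 26.9 and 13.2 FPKM in MK801 libraries. PIM2, which acts against apoptosis, was at 3.90, 4.26 and 5.56 FPKM in core and 10.5, 11.4 and 7.81 FPKM in MK801 libraries. Both killers and survival kinases were thus among the separated genes. The median over all 15 tested members was 1.06, 0.85 and 0.12 in MK801 libraries 1, 2 and 3, and without library 3 the count separated upwards was 9.

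Of the p53 target list 25 of 32 genes were tested, with 7 separated upwards and 1 downwards, although the median was 0.08. The 7 were RBM38, BBC3, PLK3, PHLDA3, CDKN1A, SESN2 and TNFRSF10B. After the GC trend was removed 6 of the 7 were separated, without PLK3 (0.34, from 0.94), and 1 other member was added. RBM38, an RNA-binding p53 target, was at 8.94, 9.30 and 6.97 FPKM in core and 21.6, 24.1 and 14.3 FPKM in MK801 libraries. PLK3, a stress-activated kinase, was at 10.1, 13.4 and 11.1 FPKM in core and 24.0, 27.0 and 18.4 FPKM in MK801 libraries. CDKN1A, the cyclin-dependent kinase inhibitor p21 and named after its values were seen, was at 65.8, 83.2 and 51.7 FPKM in core and 184, 154 and 93.4 FPKM in MK801 libraries. SESN1 was the member separated downwards. The other 17 tested members overlapped between groups, and the count was 12 without MK801 library 3.

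Mitotic genes had a lower median in MK801, also with no gene past the adjusted threshold. Of the mitosis and spindle list 57 of 59 genes were tested and 42 had a lower mean, against 49.8% of all genes tested. Of the 57, 16 were separated downwards and 1 upwards, and 19 were lower at an unadjusted p under 0.05. The median log2 difference was -0.53, and -0.65, -0.58 and -0.37 in MK801 libraries 1, 2 and 3. In library 3, the library whose GC profile matched the core, 55 of 57 genes lay below the core mean, against 5386 of all 11358 genes tested. The shift there was small: 0 members lay below the core range by at least 1 log2 unit from the core mean. Many members, among them CCNA2, FOXM1, BUB1, CENPF and SMC4, lay above core library 2 in it. For most members core library 2 was the lowest core library. These genes are poor in GC (mean 44.1%, against 49.2% over all genes tested), and after GC adjustment the median was -0.12, with 5 separated downwards and per-library medians of 0.15, -0.15 and -0.38. Relative to the core mean, the lower median in library 1 was thus not present after adjustment, while the small one in library 3 was.

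The promoters of the leading mitotic genes are shown because cell cycle genes share a known element, the cell cycle homology region, whose core was searched as TTTGAA on both strands (TTCAAA on the other). The windows are the 250 bases before a RefSeq start site (GRCh38.p14), 5′ to 3′ on the gene's strand, with matches in capitals. CDK1, the mitotic kinase, lies on the plus strand (chr10:60778228-60778477, 1 of 2 windows of this gene), and TOP2A, the topoisomerase that untangles sister chromatids, on the minus strand (chr17:40417897-40418146). They are shown because each window holds 2 matches.
CDK1: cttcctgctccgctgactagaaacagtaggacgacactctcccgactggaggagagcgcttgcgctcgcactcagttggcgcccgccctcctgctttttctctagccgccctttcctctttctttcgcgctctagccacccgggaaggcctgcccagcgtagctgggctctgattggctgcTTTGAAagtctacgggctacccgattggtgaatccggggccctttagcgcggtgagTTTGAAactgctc
TOP2A: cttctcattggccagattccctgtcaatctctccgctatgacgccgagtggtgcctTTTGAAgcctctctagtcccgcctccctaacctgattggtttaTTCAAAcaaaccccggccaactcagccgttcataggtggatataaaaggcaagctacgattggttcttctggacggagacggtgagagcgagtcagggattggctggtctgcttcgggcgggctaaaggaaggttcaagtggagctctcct
The motif was present in 26 of 52 matched list members (50%) and in 11 of the 15 matched members that were separated downwards, against 16.1% of all 27305 genes with such a window. A match is a description of the letters and not a binding site.

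CDK1 was at 10.4, 6.36 and 10.8 FPKM in core and 1.51, 2.06 and 5.72 FPKM in MK801 libraries, a log2 difference of -1.42 (SE 0.40). TOP2A was at 21.5, 19.3 and 31.4 FPKM in core and 8.23, 11.0 and 15.7 FPKM in MK801 libraries. KIF11, the spindle motor Eg5, was at 5.33, 3.4 and 7.23 FPKM in core and 1.28, 1.15 and 3.11 FPKM in MK801 libraries. NCAPG, a condensin subunit, was at 2.38 to 4.46 FPKM in core and 0.847, 1.12 and 1.82 FPKM in MK801 libraries. The groups did not overlap in these 4 genes, and after GC adjustment CDK1 and TOP2A remained separated while KIF11 and NCAPG did not. Without MK801 library 3 the number of list members separated downwards was 32.

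Genes of DNA replication gave another picture: 45 of 51 were tested, 1 was separated upwards and 4 downwards, and the median was 0.14. The medians were 0.51, -0.02 and -0.19 in MK801 libraries 1, 2 and 3, so that the libraries differed in sign. After GC adjustment the median was 0.05, with 1 separated upwards and 1 downwards, and none of the 4 was still separated. RFC3, a clamp loader subunit, was at 13.0, 10.7 and 15.7 FPKM in core and 5.65, 5.05 and 9.38 FPKM in MK801 libraries, a log2 difference of -0.90 that was -0.29 after GC adjustment. CCNE1, the G1/S cyclin, was the member separated upwards, at 0.982 to 1.45 FPKM in core and 4.35, 2.23 and 1.67 FPKM in MK801 libraries.

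Part of the hypoxia response lay below the core in MK801. All 40 genes of the list were tested, 9 were separated downwards and 3 upwards, and the median was -0.19. After GC adjustment the median was -0.16 and 12 genes were separated downwards, among them all 9. The differences of LOX, P4HA1 and PLOD2 were then smaller and that of CA12 was larger. Without MK801 library 3 the downward count as deposited was 16 of 40, against 4118 of all 11358 genes. The group includes the enzymes that hydroxylate and crosslink collagen, whose promoters are shown for LOX (minus strand, chr5:122078260-122078509, 1 of 3 windows) and P4HA1 (minus strand, chr10:73096867-73097116). Capitals mark ACGTG, the core of the hypoxia response element, on either strand (CACGT on the other).
LOX: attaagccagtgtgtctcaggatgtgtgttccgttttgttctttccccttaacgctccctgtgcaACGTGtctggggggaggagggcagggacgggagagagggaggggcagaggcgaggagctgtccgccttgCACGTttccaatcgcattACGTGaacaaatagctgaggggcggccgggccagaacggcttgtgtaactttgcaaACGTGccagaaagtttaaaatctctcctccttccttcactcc
P4HA1: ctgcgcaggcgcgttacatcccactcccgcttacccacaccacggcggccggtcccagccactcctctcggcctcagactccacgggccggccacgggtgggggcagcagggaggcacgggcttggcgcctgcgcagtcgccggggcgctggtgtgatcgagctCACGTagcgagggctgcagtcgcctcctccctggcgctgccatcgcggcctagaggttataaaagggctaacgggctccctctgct
The LOX window held 4 matches and the P4HA1 window 1. Each of the other LOX windows held 1, and the window of CA12, also separated downwards, held 0. Of the hypoxia list 20 of 31 matched genes (64.5%) held the motif, and 5 of the 7 matched members separated downwards did, against 21.7% of all genes with a window.

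LOX, lysyl oxidase, which crosslinks collagen and elastin (chr5:122063195-122078360), was at 32.3, 42.3 and 33.0 FPKM in core and 8.81, 15.3 and 19.5 FPKM in MK801 libraries. P4HA1, the catalytic subunit of collagen prolyl hydroxylase, was at 44.3, 40.7 and 44.1 FPKM in core and 8.96, 18.6 and 28.8 FPKM in MK801 libraries. PLOD2, a collagen lysyl hydroxylase, was at 27.6, 27.8 and 36.1 FPKM in core and 5.01, 11.5 and 23.6 FPKM in MK801 libraries. The 3 enzymes were separated, with log2 differences of -1.30, -1.29 and -1.35. They stayed separated after GC adjustment, at the smaller differences of -0.71, -0.77 and -0.70.

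CA12, a membrane carbonic anhydrase, was at 139, 120 and 101 FPKM in core and 59.2, 71.1 and 67.5 FPKM in MK801 libraries, so that here the 3 drug libraries lay together. VEGFA, the angiogenic growth factor and named after its values were seen, was at 99.2, 63.2 and 82.9 FPKM in core and 44.5, 55.5 and 55.7 FPKM in MK801 libraries, also separated. After GC adjustment CA12 was at -0.98 (-0.84 before) and VEGFA at -1.01 (-0.63 before). Glycolysis, another target of the hypoxia factors, did not follow: of 24 genes 1 was separated upwards and 0 downwards, with a median of 0.51 and library medians of 1.21, 0.57 and -0.23. After GC adjustment its median was 0.15, with 0 separated upwards and 1 downwards. SLC2A1, the glucose transporter, was at 422, 447 and 330 FPKM in core and 951, 785 and 388 FPKM in MK801 libraries, with overlap.

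**Figure D4:**
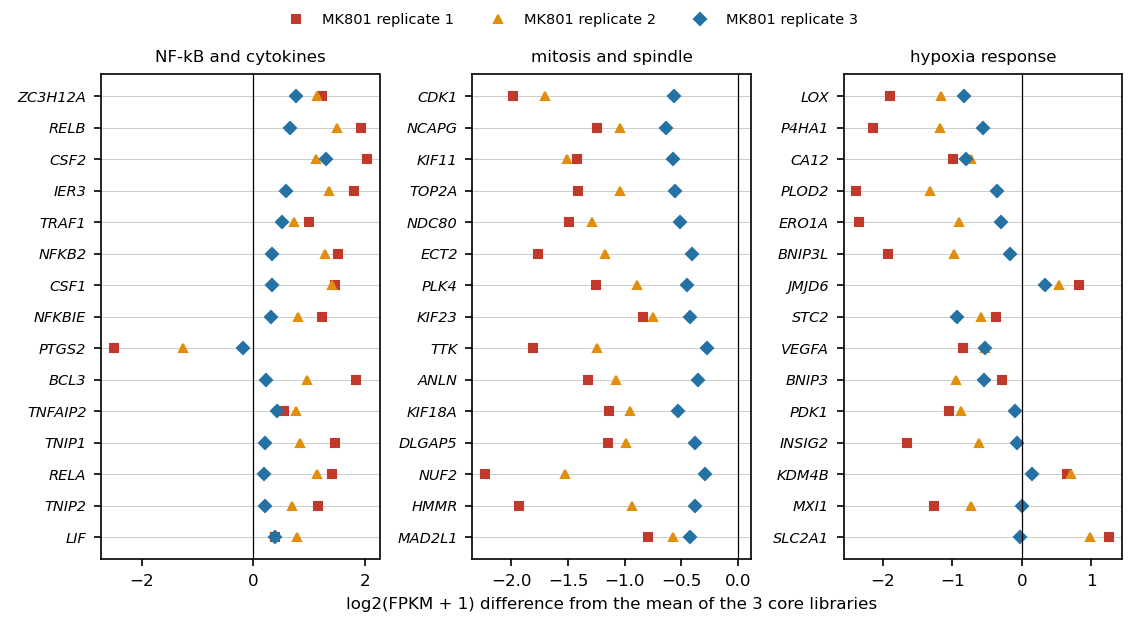
Difference from the core mean on the log2(FPKM + 1) scale (x axis) of the 15 members of smallest p (y axis) in the NF-kB, mitosis and hypoxia lists, with 1 symbol per MK801 replicate. Replicate 3 lies nearest 0 in most of them, as in CDK1 and LOX, while in CA12 the 3 symbols lie together.

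Matrix genes were separated in both directions. Of the collagen hydroxylation and crosslinking list 21 of 26 genes were tested, LOX, P4HA1 and PLOD2 were separated downwards and the procollagen protease BMP1 upwards, and the median of the list was 0.38. After GC adjustment the median was -0.08, with 6 members separated downwards and 2 upwards, not including BMP1. Of the collagens 17 of 23 were tested, 3 were separated downwards and 0 upwards: COL12A1, COL7A1 and COL8A1. COL12A1, which links collagen fibrils, was at 6.21, 3.36 and 4.97 FPKM in core and 0.849, 2.49 and 2.90 FPKM in MK801 libraries. The median over collagens was 0.05 as deposited and -0.54 after GC adjustment, with 8 separated downwards, since collagen transcripts are rich in GC (mean 57.9%).

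Of the hyaluronan list 8 of 17 genes were tested, and 3 were separated downwards: HAS2, UGP2 and HMMR, the 3 that also had the smallest p. UGP2, which makes the UDP-glucose used for hyaluronan, was at 6.81, 7.22 and 8.72 FPKM in core and 1.35, 3.45 and 6.22 FPKM in MK801 libraries. HMMR, a hyaluronan-binding protein that also acts on the spindle and is in the mitosis list, was at 2.09, 2.26 and 5.46 FPKM in core and 0.0539, 1.10 and 2.08 FPKM in MK801 libraries. The margin in HMMR was small, since MK801 library 3 nearly reached the lowest core library. After GC adjustment HAS2 and UGP2 (-0.40) were still separated and HMMR was not. Of the matrix proteases and inhibitors 29 of 36 were tested, with 2 separated upwards (TIMP3 and MMP11) and 2 downwards (ADAM10 and RECK), and the median was 0.10. With the GC trend removed the median was -0.04, with 3 upwards and 5 downwards, and MMP11 was no longer separated.

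Protein quality control genes went both ways. Of the heat shock list 23 of 29 genes were tested, 7 were separated upwards and 3 downwards, and the median was -0.27 (0.08 after GC adjustment, with 6 separated upwards and 5 downwards). HSPA1A, the inducible HSP70, was at 44.9, 34.0 and 43.2 FPKM in core and 20.2, 19.98 and 21.4 FPKM in MK801 libraries. HSPA1B, its near-identical neighbour, was at 73.2, 51.4 and 62.9 FPKM in core and 28.9, 36.7 and 31.6 FPKM in MK801 libraries. As deposited, the 3 drug libraries agreed closely in this pair, including library 3. After GC adjustment both genes were still separated but the libraries no longer agreed. The log2 differences in libraries 1, 2 and 3 were then -2.0, -1.6 and -0.9 for HSPA1A and -2.1, -1.3 and -0.9 for HSPA1B. How reads were shared between the paralogs is not given, so each gene's level is uncertain.

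FKBP4, an HSP90 cochaperone, was at 20.3, 24.4 and 20.8 FPKM in core and 83.0, 49.9 and 28.9 FPKM in MK801 libraries, separated in the opposite direction. Of the endoplasmic reticulum chaperones 23 of 24 were tested, with 5 separated upwards and 5 downwards (4 and 1 after GC adjustment). HSP90B1, the chaperone GRP94, was at 58.9, 62.4 and 70.9 FPKM in core and 19.5, 24.6 and 52.1 FPKM in MK801 libraries. HERPUD1, a component of the degradation machinery, was at 18.5, 20.9 and 20.4 FPKM in core and 30.4, 31.9 and 32.8 FPKM in MK801 libraries, again with library 3 as far from the core as the others.

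Of the ATF4 stress response list, the amino acid starvation and unfolded protein arm, 31 of 38 genes were tested, 8 were separated upwards and 2 downwards, and the median was 0.46. The library medians were 0.95, 0.43 and -0.01. TRIB3, a pseudokinase induced by ATF4, was at 36.7, 36.7 and 34.2 FPKM in core and 132, 83.3 and 44.0 FPKM in MK801 libraries. SESN2, a sensor of leucine that restrains mTORC1, was at 18.9, 23.7 and 19.4 FPKM in core and 49.9, 45.1 and 26.3 FPKM in MK801 libraries. With the GC trend removed the median was 0.20 and 6 were separated upwards, and without MK801 library 3 the count as deposited was 19.

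In the glutamate list 8.33% of tested genes were separated upwards, near the 9.99% over all genes tested, and 0% downwards, against 8.87%. In the calcium list these shares were 5.88% and 2.94%. These shares rest on few members. Of the glutamate transport and metabolism list 24 of 32 were tested, PYCR1 and SLC7A5 were separated upwards and 0 genes downwards, and the median was 0.18 (0.28 after GC adjustment, with 4 separated upwards). PYCR1, which makes proline from a glutamate-derived precursor, was at 17.6, 17.5 and 13.5 FPKM in core and 60.2, 37.6 and 20.04 FPKM in MK801 libraries. SLC1A5, the main glutamine importer, was at 38.5, 36.4 and 31.5 FPKM in core and 132, 85.5 and 38.1 FPKM in MK801 libraries, where library 3 lay within the core range. Of the calcium signalling list 34 of 41 genes were tested, 2 were separated upwards and 1 downwards, and the median was 0.03. After GC adjustment none of these 3 was still separated. ORAI1, the store-operated calcium channel, was at 8.28, 9.5 and 6.02 FPKM in core and 28.99, 18.7 and 9.17 FPKM in MK801 libraries, with overlap.

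In 3 metabolic and translation lists the median was above 0 in MK801 libraries 1 and 2 and below 0 in library 3. This was not particular to them: other lists had the same signs, among them glycolysis and collagen hydroxylation and crosslinking (0.88, 0.56 and -0.18). Nuclear genes of oxidative phosphorylation (63 of 65 tested) had medians of 0.98, 0.19 and -0.13 in libraries 1, 2 and 3, with 0 separated upwards and 9 downwards. NDUFB3 led the 9, and COX6C, a cytochrome oxidase subunit, was at 17.8, 16.9 and 18.1 FPKM in core and 6.84, 7.16 and 12.1 FPKM in MK801 libraries. After GC adjustment 2 members were separated downwards and 3 upwards. The 13 protein-coding mitochondrial genes had medians of 0.75, 0.91 and -0.32, with 13 of 13 above the core mean in library 2 and 13 of 13 below it in library 3, and after GC adjustment the medians were 1.27, 1.19 and -0.32. Cytoplasmic ribosomal proteins (75 of 76 tested) had medians of 0.92, 0.29 and -0.09, with 0 separated upwards and 8 downwards, and 0 and 8 after GC adjustment.

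Cholesterol genes, which provide membrane sterol and its uptake, had medians of 0.62, 0.54 and 0.12, with 1 of 30 separated upwards, FDPS. In library 3, 25 of 30 were above the core mean, against 5972 of all 11358 genes tested. After GC adjustment 4 were separated upwards. Splicing factors of the SR and hnRNP families had medians of -0.78, -0.59 and 0.02 and a mean GC content of 41.3%, and 2 of 24 were separated downwards. After GC adjustment these medians were 0.08, -0.03 and 0.01. Of the interferon-stimulated genes 28 of 43 were tested, 4 were separated downwards and 1 upwards, and the median was -0.37 (-0.22 after GC adjustment, with 7 downwards). IFI44, an interferon-induced protein of the cytoplasm, was at 31.3, 35.4 and 62.3 FPKM in core and 4.16, 7.75 and 30.3 FPKM in MK801 libraries. In this gene library 3 lay just below the lowest core value. Without MK801 library 3 the downward count of this list was 13.

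**Figure D5:**
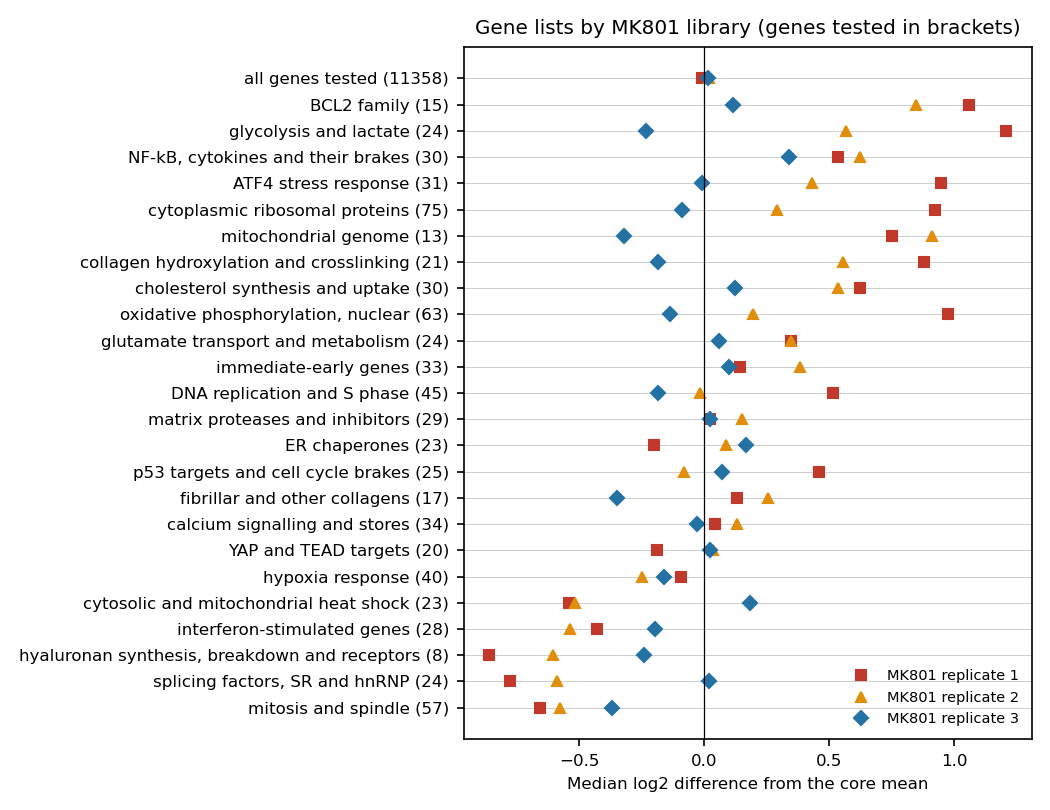
Median log2(FPKM + 1) difference from the core mean (x axis) for each gene list (y axis, genes tested in brackets), with 1 symbol per MK801 replicate. Replicate 3 has the same sign as the other 2 in the mitosis (-0.37) and NF-kB (0.34) lists and the opposite sign in glycolysis (-0.23) and the mitochondrial genome (-0.32).

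Single libraries also had genes of their own, named by rule as those farthest from the other 2 MK801 libraries and outside the range of the other 5. In MK801 library 1, BGN, the matrix proteoglycan biglycan, was at 313 FPKM against 29.8 to 108 FPKM in the other 5 libraries, followed by TK1, TMEM160 and CDT1. CTNNAL1, an alpha-catenin relative, was at 0.0226 FPKM there against 4.03 to 8.39 FPKM elsewhere, and OPN1SW, PRKCI and PTBP3 were the other lowest. In MK801 library 2, FOSB, an immediate-early AP-1 factor, was at 293 FPKM against 105 to 156 FPKM in the others, and KDM6B, NOTCH2 and SIK1 were also highest there, while SNRPG, C8orf88, FAHD1 and IL36RN were lowest. In MK801 library 3, ATP13A3, a polyamine transporter, was at 35.4 FPKM against 3.08 to 27.3 FPKM, and OPN1SW and UFM1 were also among the highest by this rule. BGN, TK1, NRM and CDT1 were lowest in library 3. BGN, TK1, CDT1 and OPN1SW appear for both library 1 and library 3, at opposite ends.

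Library 3, the deepest and the one whose composition matched the core, had 14 protein-coding genes above and 5 below the core range by at least 1 log2 unit, named here after their values were seen. The 5 lower genes were DDIT4, TGFBI, IFI6, DEPP1 and DENND2A. DDIT4, an mTORC1 inhibitor induced by hypoxia and stress, was at 401, 295 and 292 FPKM in core and 374, 237 and 149.6 FPKM in MK801 libraries 1, 2 and 3. TGFBI, a secreted adhesion protein, was at 102, 58.7 and 57.0 FPKM in core and 128.5, 73.0 and 32.1 FPKM in MK801 libraries. In DDIT4 and TGFBI as deposited, the order of the libraries was the reverse of that in HAS2, with library 3 the lowest. After GC adjustment DDIT4 and IFI6 were separated downwards, with all 3 MK801 libraries below the core, while TGFBI was not. Among the 14 higher genes, TFPI2, a protease inhibitor of the matrix, was at 13.0, 18.8 and 14.4 FPKM in core and 17.6, 17.6 and 31.5 FPKM in MK801 libraries, and RGCC, a regulator of the cell cycle, at 30.6, 45.6 and 45.0 FPKM in core and 29.3, 65.3 and 80.6 FPKM in MK801 libraries.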

How the data were processed

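RNA of the 9 libraries was poly-A selected, per the labels' protocols, and 6 libraries were used here. Each column was mapped to its sample by the column name in the label. The authors deposited FPKM per gene with the gene length beside it. HISAT2 2.0.5, featureCounts 1.5.0-p3 and GRCh38 are named per the submitters' processing notes, without settings, so use of strand is not known and overlapping or antisense genes are uncertain. Gene coordinates matched GENCODE 29 for 99.98% of 58735 genes. FPKM times gene length gave whole fragments for 100% of values (tolerance 0.01 fragments), which gave the depths. The FPKM imply a library total that was 1.10 to 1.23 times the sum over genes in core and 0.769, 0.937 and 1.19 times in MK801 libraries 1, 2 and 3. Why it differs is not given in the sources used here.

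Genes with at least 1 FPKM in at least 3 of 6 libraries were tested on log2(FPKM + 1), so that differences of low genes are understated. limma 3.58.1 (R 4.3.3) fitted group means with 4 residual degrees of freedom, moderating variances along a trend on mean level (empirical Bayes), with Benjamini-Hochberg adjustment and a threshold of 0.05. The script was tested on simulated data. Named genes were (a) separated protein-coding genes of at least 5 FPKM, the 10 of smallest p per direction, (b) up to 4 members of smallest p per described list, (c) the NMDA receptor subunits, and (d) 4 genes per direction that set each MK801 library apart. A few genes that these rules name are not reported here. The comparison, the 43 gene lists and the rules were chosen with earlier results of these data known, so they are not independent support for a pattern. GC content is that of the longest GENCODE transcript, and its trend was removed per library by loess (span 0.3). Promoter windows came from RefSeq (GRCh38.p14). Alternatives were pseudocounts of 0.1 and 0.5, no expression filter, a stricter one (5 FPKM), scaling by median of ratios, GC adjustment, library quality weights, limma-voom on the recovered fragments, all 9 libraries in 1 fit, the replicate block, and each library left out. Scaling or GC adjustment together with leaving out MK801 library 3 was chosen after seeing the data.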

Additional observations from a re-analysis of the deposited data

How the results depend on the processing

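The count of 0 genes past an adjusted p of 0.05 (1472 at an unadjusted p under 0.05) stayed 0 under both pseudocounts, both filters, median-of-ratios scaling, GC adjustment, all 9 libraries in 1 fit and limma-voom, which had 638 at an unadjusted p under 0.05. Leaving out 1 library gave 0 to 5528 genes, with 5528 without MK801 library 3 (2783 higher, 2745 lower). In the 2 alternatives added after seeing the data, which also leave out library 3, it was 5517 with median-of-ratios scaling and 0 after GC adjustment, where 3095 genes had an unadjusted p under 0.05. Quality weights gave 8717 genes, but their estimation stopped before converging and gave MK801 library 2 a weight of 2630 against at most 0.756 for the others, so this count has no reliable meaning. The replicate block gave 795 genes (2 residual degrees of freedom) and, with GC adjustment, 0. Same-numbered core and MK801 libraries deviated together with correlations of 0.435, 0.065 and 0.613. The same-numbered core was the best match for MK801 libraries 1 and 3. For MK801 library 2 all 3 correlations were weak (-0.156 to 0.113), so this check does not decide whether the libraries pair. Replicate numbers are shared, but the labels do not say that they pair devices, so the block was kept as an alternative.

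The 2143 separated genes became 3238 without the filter and 1294 with the filter of 5 FPKM, 2375 to 8271 with 1 library left out (3235 without core library 1, 3425 without core library 2, 8271 without MK801 library 3), 8261 with scaling and 5353 with GC adjustment when library 3 was also left out. Fewer libraries separate more easily by construction. After GC adjustment the genes past the core range were 1713 in MK801 library 1 (4937 before) and 269 in library 2 (1182 before). limma-voom shifted the median over all genes by -0.26. The 20 genes named by rule and 12 further named genes kept their direction under the alternatives in which they were tested. For a separated gene, as all 20 were by rule, most alternatives could not change the direction. Leaving out a library or changing the pseudocount, filter, weights or block keeps it by construction. Only scaling, GC adjustment and limma-voom could have reversed it. The filter of 5 FPKM left out 5 of them (CSF2, CPNE7, FAM19A3, KIF11 and NCAPG), so 27 were tested there. Depth limits the low genes most, such as CSF2, with 1 fragment in core library 2.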

Other observations

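The other 13 of the 18 genes beyond the core range in all 3 MK801 libraries were not protein coding, and most were short. SNORD14E, a small nucleolar RNA gene of 85 bases, had 45, 13 and 22 fragments in core and 0, 1 and 13 in MK801 libraries. MIR4263, a gene of 83 bases and the one with the smallest adjusted p (0.0731, limma), had 7, 5 and 6 fragments in core and 0 in all 3 MK801 libraries, in a library type selected for poly-A RNA. LINC00659, an annotated antisense transcript, had 55, 98 and 55 fragments in core and 213, 132 and 475 in MK801 libraries, at 3.66, 10.6 and 4.52 FPKM and 27.9, 15.8 and 13.5 FPKM. MIR4292, of 67 bases, had 24, 2 and 7 fragments in core and 26, 29 and 90 in MK801 libraries. These counts are small, and without strand a fragment at such a gene may belong to an overlapping transcript.

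SLC17A7, the vesicular glutamate transporter of neurons and 1 of the 6 neuron markers, was at 1.24, 2.48 and 1.41 FPKM in core and 3.75, 4.71 and 1.86 FPKM in MK801 libraries, with overlap. It was the only neuron marker above the test level, and the 6 markers summed to 2.00 to 3.67 FPKM in core and 2.99 to 5.90 FPKM in MK801 libraries.

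As a description, Pearson's r of log2(FPKM + 1) over the genes compared was 0.970 to 0.978 between MK801 library 3 and the core libraries. It was 0.795 to 0.873 for library 1 and 0.888 to 0.940 for library 2. Between MK801 libraries 1 and 3 it was 0.836, lower than between library 3 and any core library.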
